A study of Mus musculus with 12 samples.

Results

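The 10 genes described here are a set of Müller glia genes that handle glutamate, retinoids, potassium, water, acid-base balance and lipids: Glul, Slc1a3, Rlbp1, Kcnj10, Aqp4, Car14, Apoe, Ptgds, Dkk3 and Gpr37. They were taken by symbol from a table of read counts, and all 10 were found among its 35976 genes, of which 24484 had a read in any library. Glul was chosen from these data for its opposite response to oxygen-induced retinopathy in the 2 genotypes, so its values are a description and carry no test, and the set was put together around it with that result known. The other 9 genes were tested along with every other gene in the table.

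The table holds 12 mouse retina libraries in 4 groups of 3. Oxygen-induced retinopathy (OIR) is a model in which pups are kept in high oxygen, which stops the growth of retinal vessels, and are then returned to room air, where the retina becomes short of oxygen. The groups labeled WT are C57BL/6 mice, either kept in room air throughout (normoxia) or exposed to 75% oxygen from postnatal day 7 to day 12 and returned to room air for 3 days, with the retinas of both groups taken at postnatal day 15. The groups labeled Casp1 KO are caspase-1 knockout mice given as normoxia or as 3 days post OIR, and their line, their age and the oxygen they received are not given in the sources used here. Male and female pups were used, the sex and the number of animals behind a library are not stated, and nothing says that the libraries of a group came from separate animals. The p-values therefore measure the spread between these libraries, which may be technical.

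Total counts ran from 3391203 to 5657873 in 11 of the libraries, and WT normoxia replicate 2 reached 22815830. Casp1 itself had 7 reads over the 6 libraries labeled WT (0 to 3 in each) and 126 over the 6 labeled Casp1 KO (10 to 45 in each). That order is the reverse of a plain reading of the labels. The reads are few, and reads of the 3′ end cannot show whether an intact transcript was made. Whether the labels are right is therefore not settled here, and every direction between genotypes below is a direction between labels. WT OIR replicate 3 stood apart from its group. Its counts differed from those of its 2 partners by a chi-square of 14.03 and 13.2 for each degree of freedom, and the partners differed from each other by 5.15. Every gene of the set had more than 3 counts in every library, with between 30 and 26313 reads per library. Levels are given as CPM (reads of the gene relative to the size of the library) scaled by the trimmed mean of M-values (TMM). These reads come from the 3′ end of transcripts, so a level does not grow with transcript length.

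Müller glia are the main supporting glia of the retina and span its whole thickness. They take up glutamate and potassium released by neurons, move water and bicarbonate, return visual pigment precursors to cones, and export lipid particles. In injury they become reactive, a state marked by intermediate filament genes such as Gfap and Vim, and expression of homeostatic genes can fall. The label was checked against 8 other genes known from Müller glia, Dbi, Spon1, Abca8a, Crym, Mlc1, Col9a1, Prdx6 and Acsbg1. Their summed level lay between 787 and 934 CPM over the 12 libraries. Dbi was the largest part, with group means of 316 to 380 CPM. Acsbg1 had 20 reads over all libraries, and each of the others had at least 126 reads in every library. The markers other than Acsbg1 were thus present in each library. Several genes of the set are known from other cells too: Rlbp1 is also made by the retinal pigment epithelium, Ptgds and Gpr37 by oligodendrocytes, Apoe by microglia and Aqp4 by astrocytes. In bulk tissue, fewer cells of a type and less RNA per cell cannot be told apart.

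Promoters are shown for 3 of the 4 genes whose OIR responses lay in opposite directions in the 2 genotypes without overlap of their libraries (Glul, Rlbp1 and Ptgds, the other being Dkk3) and for Slc1a3, which moved the same way in both. From the RefSeq promoter table, in build GRCm38.p6, a window from 250 bases before to 50 bases after the RefSeq start was used for 8 of the 10 genes. For Ptgds that start lay 297 bases from the start of the GENCODE gene model. Its whole window therefore lies within the gene position given below. The Glul window is chr1:153899679-153899978 on the plus strand, the Rlbp1 window chr7:79386978-79387277 on the minus strand, the Ptgds window chr2:25469700-25469999 on the minus strand and the Slc1a3 window chr15:8710758-8711057 on the minus strand. Each is printed 5′ to 3′ along its gene, and capitals mark the motifs that were searched on both strands: the HIF core ACGTG or GCGTG, the glucocorticoid receptor half-site AGAACA, the LHX2 homeodomain motif TAATTA, the AP-1 motif TGANTCA and the CCAAT box.
Glul: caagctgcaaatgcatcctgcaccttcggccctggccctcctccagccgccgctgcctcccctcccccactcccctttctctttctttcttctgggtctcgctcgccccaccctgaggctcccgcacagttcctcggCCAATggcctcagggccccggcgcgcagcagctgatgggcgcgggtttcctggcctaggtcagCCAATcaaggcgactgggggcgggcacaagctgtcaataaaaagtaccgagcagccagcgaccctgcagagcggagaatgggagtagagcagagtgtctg
Rlbp1: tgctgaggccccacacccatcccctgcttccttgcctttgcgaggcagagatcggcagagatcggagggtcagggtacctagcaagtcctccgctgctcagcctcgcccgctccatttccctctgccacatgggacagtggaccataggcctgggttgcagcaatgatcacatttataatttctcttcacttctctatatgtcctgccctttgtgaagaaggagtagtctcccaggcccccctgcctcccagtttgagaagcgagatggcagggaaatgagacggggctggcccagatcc
Ptgds: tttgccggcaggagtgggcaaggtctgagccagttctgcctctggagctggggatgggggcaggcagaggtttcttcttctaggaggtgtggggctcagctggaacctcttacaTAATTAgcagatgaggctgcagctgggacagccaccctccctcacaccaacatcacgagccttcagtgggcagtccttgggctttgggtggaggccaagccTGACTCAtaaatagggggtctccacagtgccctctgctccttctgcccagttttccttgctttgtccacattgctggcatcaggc
Slc1a3: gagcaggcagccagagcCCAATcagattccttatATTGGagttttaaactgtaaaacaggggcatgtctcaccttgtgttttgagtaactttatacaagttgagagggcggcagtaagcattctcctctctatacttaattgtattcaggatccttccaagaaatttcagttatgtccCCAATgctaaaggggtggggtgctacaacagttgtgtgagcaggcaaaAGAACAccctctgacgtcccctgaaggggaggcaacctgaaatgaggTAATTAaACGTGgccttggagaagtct
The windows differed in which motifs they held. The Glul window had 2 CCAAT boxes and no other motif of the 5, and the Rlbp1 window had none. The Ptgds window had 1 LHX2 homeodomain motif and 1 AP-1 motif. The Slc1a3 window had 3 CCAAT boxes, 1 glucocorticoid receptor half-site, 1 LHX2 homeodomain motif and 1 HIF core. Over all 32851 promoters of the table, 43.8% held the HIF core, 18.97% the half-site, 5.29% the LHX2 motif, 7.81% the AP-1 motif and 37.4% the CCAAT box. Among the 8 windows of the set, 3 held the HIF core, 4 the half-site, 2 the LHX2 motif, 1 the AP-1 motif and 3 the CCAAT box. A match of a few letters describes the window and does not show binding.

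Glul encodes glutamine synthetase, which turns glutamate taken up by Müller glia into glutamine for return to neurons. The gene lies at chr1:153899944-153909723 (mm10, plus strand). By group mean it had the highest level of the set except in WT OIR, where Apoe was above it. In WT normoxia the 3 libraries had 1076, 1171 and 1172 CPM, and in WT OIR 642, 717 and 759 CPM. In the libraries labeled Casp1 KO the order was the other way, with 732, 855 and 869 CPM in normoxia and 1109, 1069 and 1051 CPM in OIR. The OIR libraries thus lay wholly below the normoxia libraries in WT and wholly above them in Casp1 KO. The log2 fold change of OIR against normoxia was -0.70 (SE 0.114) in WT and 0.41 (SE 0.069) in Casp1 KO, and the second effect exceeded the first by 1.09 (SE 0.133).

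The groups ranked WT normoxia (1140 ± 55.1 CPM, SD, n = 3), Casp1 KO OIR (1077 ± 29.8), Casp1 KO normoxia (819 ± 75.1) and WT OIR (706 ± 59.4). The upper pair overlapped, the lower pair overlapped, and the 2 pairs were apart. Glul made up 31.9% ± 1.31 of the summed CPM of the 10 genes in WT normoxia, 24.8% ± 2.42 in WT OIR, 30.5% ± 2.45 in Casp1 KO normoxia and 27.3% ± 1.30 in Casp1 KO OIR. The share was lower in WT OIR than in WT normoxia without overlap (22.1% to 26.5% against 30.5% to 33.1%), while in Casp1 KO the shares of the 2 groups overlapped (26.1% to 28.7% in OIR against 27.7% to 32.2%). Teddm2, on the other strand, overlaps the start of Glul, and it had at most 8 reads in a library. The microRNA gene Mir8114 overlaps the start on the same strand. Neither of these genes covers the 3′ end of Glul, where the reads of these libraries fall. Reads shared with Mir8114 at the start were not counted.

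**Figure D1:**
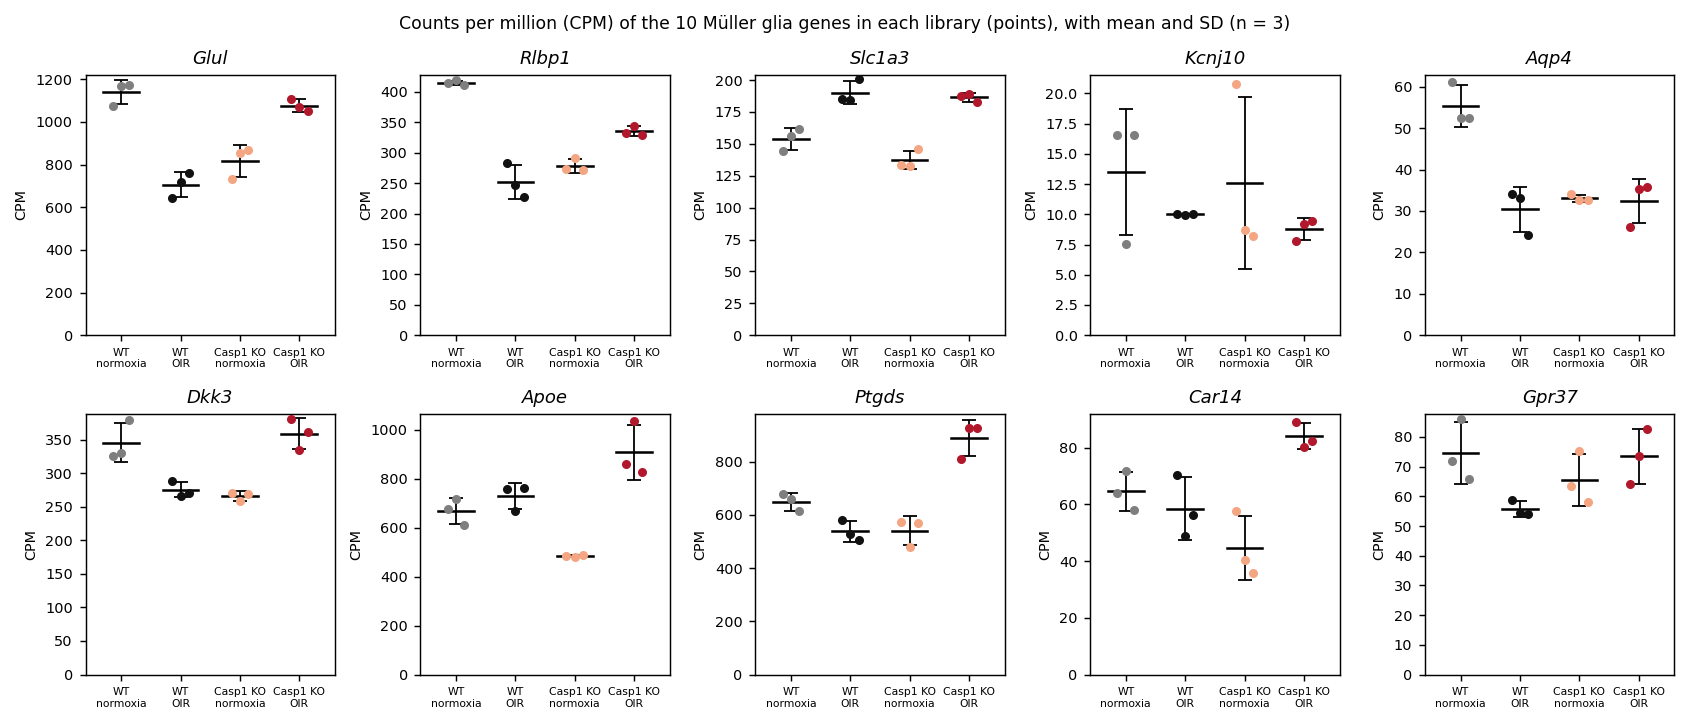
CPM of each of the 10 genes in every library (points, one color per group), with the group mean (wide bar) and SD (n = 3), on linear axes that start at 0. Glul, Rlbp1, Dkk3 and Ptgds lie lower in OIR in WT and higher in OIR in Casp1 KO with no overlap, and Kcnj10 is split within both normoxia groups.

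Slc1a3 encodes GLAST, the main glutamate transporter of Müller glia, and supplies the substrate of glutamine synthetase. The gene lies at chr15:8634124-8710764 on the minus strand and contains Gm37310, an unclassified gene on the same strand. It did not follow Glul. Its 3 libraries had 145, 157 and 161 CPM in WT normoxia and 185, 184 and 201 CPM in WT OIR. In Casp1 KO they had 134, 132 and 146 CPM in normoxia and 188, 189 and 183 CPM in OIR. OIR libraries lay above normoxia libraries in both genotypes. In Casp1 KO the rise passed the test (log2 fold change 0.45, SE 0.102, adjusted p = 0.000573, edgeR quasi-likelihood test), and in WT the value was 0.29 (SE 0.136, adjusted p = 0.313). The 2 effects differed by 0.14, with a 95% interval of -0.20 to 0.47 and an adjusted p of 0.961, so a difference between them was not detected.

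Rlbp1 encodes CRALBP, the carrier of 11-cis retinoids in Müller glia and in the retinal pigment epithelium. It lies at chr7:79374870-79387048 on the minus strand. Libraries had 414, 419 and 411 CPM in WT normoxia and 283, 247 and 228 CPM in WT OIR. Libraries labeled Casp1 KO had 273, 292 and 271 CPM in normoxia and 333, 344 and 329 CPM in OIR. As for Glul, the OIR libraries lay below normoxia in WT and above it in Casp1 KO. The WT fall was 0.73 on the log2 scale, a log2 fold change of -0.73 (SE 0.126, adjusted p = 1.61e-06). The rise in Casp1 KO was smaller (0.28, SE 0.086, adjusted p = 0.026), and without 1 library it was past the threshold in 1 of 6 fits, at adjusted p between 0.0478 and 0.144. WT normoxia stood above all 9 other libraries, and Casp1 KO normoxia and WT OIR overlapped at the bottom of the order.

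Kcnj10 encodes Kir4.1, the potassium channel that sets the membrane potential of Müller glia. It lies at chr1:172341210-172374085 on the plus strand. It was the least abundant of the 10, and its libraries were split within groups. WT normoxia had 16.5, 7.52 and 16.5 CPM, the low value being that of the deepest library, and Casp1 KO normoxia had 20.8, 8.71 and 8.21 CPM. The OIR libraries were close to one another at 10.04, 9.94 and 9.99 CPM in WT and at 7.78, 9.20 and 9.46 CPM in Casp1 KO. No comparison passed the test. The OIR values of -0.41 (SE 0.337) and -0.52 (SE 0.338) have 95% intervals of -1.08 to 0.25 and -1.18 to 0.14, so a fall of the size seen for Rlbp1 or Aqp4 in WT was not resolved at this spread.

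Aqp4 encodes aquaporin-4, the water channel of Müller glial endfeet and of astrocytes. An antisense gene, AC133525.2, overlaps it on the other strand, and the strand setting of the counting is not stated. WT normoxia was the only group that stood apart, with 61.1, 52.5 and 52.4 CPM. WT OIR had 34.0, 33.1 and 24.2 CPM, Casp1 KO normoxia 34.1, 32.5 and 32.6 CPM, and Casp1 KO OIR 26.2, 35.3 and 35.8 CPM. In WT it fell by 0.87 on the log2 scale in OIR (SE 0.193, adjusted p = 0.000532). In Casp1 KO the OIR value was -0.02 (SE 0.197, adjusted p = 0.984), with a 95% interval of -0.40 to 0.37. The difference of the 2 effects was 0.83 (SE 0.274) and did not pass the test (adjusted p = 0.122), so a difference in response between genotypes is not shown for this gene.

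Car14 encodes carbonic anhydrase 14, a membrane enzyme that interconverts carbon dioxide and bicarbonate. It lies at chr3:95897768-95904691 on the minus strand, and Aph1a on the other strand covers its 3′ end, where these reads fall. WT had 64.1, 71.9 and 58.1 CPM in normoxia and 70.5, 48.8 and 56.3 CPM in OIR, which overlapped. Casp1 KO had 57.6, 40.4 and 36.0 CPM in normoxia and 89.2, 80.4 and 82.5 CPM in OIR, all above. The rise in Casp1 KO was 0.91 (SE 0.146, adjusted p = 7.82e-08), against -0.16 (SE 0.170, adjusted p = 0.679) in WT. Aph1a was lower in level, at 15.6 to 20.6 CPM in the group means, and its own values in OIR were -0.07 (SE 0.258, adjusted p = 0.94) in WT and 0.39 (SE 0.265, adjusted p = 0.547) in Casp1 KO. Without the strand setting, reads of the 2 genes cannot be told apart, so both counts are uncertain.

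Apoe encodes apolipoprotein E, the lipid carrier that Müller glia and microglia secrete. It lies at chr7:19696109-19699188 on the minus strand. WT libraries overlapped between normoxia (676, 716 and 609 CPM) and OIR (759, 668 and 760 CPM). Casp1 KO normoxia libraries were tightly grouped at 483, 480 and 488 CPM, and Casp1 KO OIR libraries lay far above at 860, 1036 and 828 CPM. Its log2 fold change in Casp1 KO was 0.92 (SE 0.074, adjusted p = 9.16e-33), a 1.89-fold rise close to that of Car14, against 0.12 (SE 0.117, adjusted p = 0.669) in WT. The 11 microglia markers summed to 65.0 to 79.1 CPM in WT normoxia, 111 to 118 in WT OIR, 58.3 to 69.6 in Casp1 KO normoxia and 106 to 129 in Casp1 KO OIR, and no marker was at 0 over a whole group. Of these markers 2 rose in WT, C1qa and C1qc, and 3 in Casp1 KO, with C1qb added. The summed level of these markers was thus higher in OIR in both genotypes, whereas the Apoe groups overlapped in WT. Their part in the Apoe result was not tested.

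Ptgds encodes lipocalin-type prostaglandin D synthase, which makes prostaglandin D2 and carries retinoids and other lipids. It lies at chr2:25466709-25470046 on the minus strand. WT had 678, 658 and 613 CPM in normoxia and 580, 529 and 505 CPM in OIR. Casp1 KO had 574, 479 and 569 CPM in normoxia and 812, 927 and 928 CPM in OIR. The groups were apart in both genotypes and in opposite order. The rise in Casp1 KO was 0.73 (SE 0.073, adjusted p = 1.38e-20), and the WT value of -0.28 (SE 0.119) did not pass the test (adjusted p = 0.218). The Casp1 KO OIR group was the highest for Ptgds and stood apart from the other 3.

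Dkk3 encodes a secreted protein of the dickkopf family that is abundant in Müller glia. It lies at chr7:112116017-112159057 on the minus strand. WT had 326, 331 and 378 CPM in normoxia and 288, 266 and 271 CPM in OIR, while Casp1 KO had 271, 258 and 269 CPM in normoxia and 381, 334 and 361 CPM in OIR. Again the groups were apart and in opposite order. The rise in Casp1 KO passed the test (0.44, SE 0.086, adjusted p = 2.03e-05). The WT value was -0.34 (SE 0.126, adjusted p = 0.130), and without WT OIR replicate 3 it was -0.32 with an adjusted p of 0.0364. WT normoxia and Casp1 KO OIR overlapped at the top of the order, and WT OIR and Casp1 KO normoxia at the bottom, as for Glul.

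Gpr37 encodes a receptor for prosaposin that is known from glia and myelinating cells. It lies at chr6:25665878-25690729 on the minus strand. WT had 71.9, 86.1 and 65.7 CPM in normoxia and 58.8, 54.3 and 54.0 CPM in OIR, without overlap. Casp1 KO had 63.4, 75.2 and 58.0 CPM in normoxia and 64.3, 73.6 and 82.7 CPM in OIR, which overlapped. Neither OIR value passed the test (-0.44, SE 0.167, adjusted p = 0.141 in WT and 0.18, SE 0.1401, adjusted p = 0.587 in Casp1 KO). Each neighboring pair of groups in its order overlapped.

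Of the 9 genes tested, 5 had OIR values of opposite sign in the 2 genotypes and 4 had the same sign, Slc1a3 and Apoe above 0 and Kcnj10 and Aqp4 below 0 in both. How common opposite signs are among all genes was not counted, so the 5 are not read as a trait of the set. Rlbp1 was the one gene called in both genotypes. In WT, 2 of the 9 tested genes fell (Rlbp1 and Aqp4) and 0 rose, where 2.29% of all 22853 genes tested were lower and 1.58% higher. In Casp1 KO, 6 of the 9 rose (Rlbp1, Slc1a3, Dkk3, Apoe, Ptgds and Car14) and 0 fell, where 2.61% of 22387 genes were higher and 2.03% lower. These shares include many genes with few reads. Among the 11228 genes with a mean of at least 5 CPM, 7.21% were called in WT and 8.7% in Casp1 KO, in either direction. The OIR and normoxia libraries were apart for 6 of these 9 in WT and for 6 in Casp1 KO, where 16.7% and 17.1% of all genes were apart. The median log2 fold change over the 9 was -0.34 in WT and 0.44 in Casp1 KO, and over all genes tested it was 0.04 and 0.00 (-0.00195). The summed level of the 9 was 2438 ± 67.1 CPM (SD, n = 3) in WT normoxia, 2139 ± 117 in WT OIR, 1862 ± 57.6 in Casp1 KO normoxia and 2877 ± 138 in Casp1 KO OIR. Glul, chosen for its pattern, is left out of these counts, medians and sums.

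**Figure D2:**
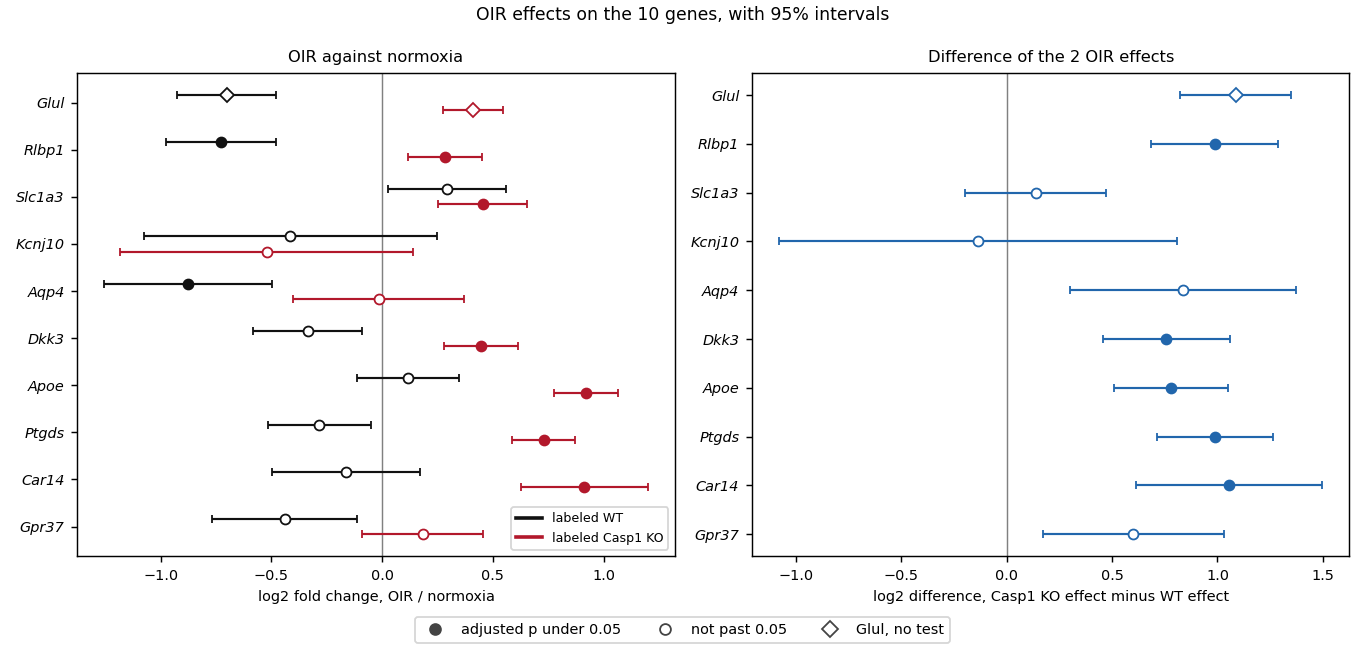
Left, log2 fold change of OIR against normoxia for each gene in the libraries labeled WT (black) and Casp1 KO (red). Right, the Casp1 KO effect minus the WT effect on the log2 scale. Bars are 95% intervals, filled circles passed an adjusted p of 0.05, open circles did not, and Glul (diamonds) was not tested. On the right, 8 of the 9 tested genes lie above 0, and Kcnj10 has the widest interval.

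The difference between the 2 OIR effects was tested in one fit over all 12 libraries. The effect was more positive in Casp1 KO for 5 of the 9 tested genes and more negative for 0, where 0.604% of 24484 genes were more positive and 0.527% more negative. With a mean of at least 5 CPM, 2.27% of 11228 genes were called in either direction. The 5 were Car14 (1.06, SE 0.225, adjusted p = 0.000977), Ptgds (0.99, SE 0.1395, adjusted p = 3.05e-09), Rlbp1 (0.99, SE 0.153, adjusted p = 1.43e-07), Apoe (0.78, SE 0.138, adjusted p = 1.2e-05) and Dkk3 (0.76, SE 0.153, adjusted p = 0.000344). Beyond Aqp4 and Slc1a3, whose values are given above, Gpr37 had 0.60 (SE 0.219, adjusted p = 0.207) and Kcnj10 -0.13 (SE 0.482, adjusted p = 1). The median over the 9 was 0.78, and over all genes tested -0.04. The difference was reached in more than one way. Rlbp1, Ptgds and Dkk3 (3 of the 9 tested) had opposite directions without overlap in each genotype. Glul had them too, but it was chosen for that pattern. Apoe and Car14 overlapped in WT and lay apart in Casp1 KO. The share of all genes with opposite directions without overlap was not counted.

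The same differences can be read between genotypes at each condition, which share their libraries with the comparisons above. In normoxia, 6 of the 9 tested genes were lower in the libraries labeled Casp1 KO and 0 were higher, where 0.56% of 22480 genes were lower and 0.476% higher. With a mean of at least 5 CPM, 1.95% of 11228 genes were called in either direction. Aqp4 fell by 0.73 on the log2 scale (SE 0.168, adjusted p = 0.00279), Rlbp1 by 0.57 (SE 0.081, adjusted p = 2.58e-09), Apoe by 0.46 (SE 0.073, adjusted p = 2.51e-07) and Dkk3 by 0.37 (SE 0.083, adjusted p = 0.00209). Car14 (-0.53, SE 0.151, adjusted p = 0.0486) and Ptgds (-0.26, SE 0.072, adjusted p = 0.0378) passed narrowly. Car14 was called in 1 of 8 other settings and in 2 of 6 fits without 1 library, and Ptgds in 5 of 8 and 2 of 6. Glul had a value of -0.47 (SE 0.065). For 6 of the 9 genes the 2 groups were apart, against 12.4% of all genes. Among other glial genes, Clu (-0.46, SE 0.076, adjusted p = 1.49e-06), Nfib (-0.53, SE 0.133, adjusted p = 0.0112) and Sox2 (-0.54, SE 0.153, adjusted p = 0.0432) were lower as well, and Dmd was higher (0.35, SE 0.069, adjusted p = 0.000128). In the lists described below, 1 of 19 lipid genes and 2 of 13 transcription factors and Notch targets were lower, with 0 higher. Of 26 potassium, water and acid-base genes, 1 was higher and 1 lower. By edgeR 0 of 17 glutamate and GABA, 0 of 17 retinoid, 0 of 8 other Müller glia and 0 of 16 reactivity genes were called. By DESeq2 these counts were 3, 0, 1 and 0. The count of 6 members fell to 3 without WT normoxia replicate 1 and to 3 with all 12 libraries in one fit.

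In OIR, Ptgds alone of the 9 was higher in the libraries labeled Casp1 KO (0.73, SE 0.119, adjusted p = 1.73e-06) and 0 were lower, where 0.263% of 22774 genes were higher and 0.312% lower. With a mean of at least 5 CPM, 1.14% of 11228 genes were called in either direction. For 7 of the 9 genes the 2 groups were apart, against 11.9% of all genes. Glul had a value of 0.61 (SE 0.117), Car14 0.52 (SE 0.167, adjusted p = 0.136), Rlbp1 0.41 (SE 0.130, adjusted p = 0.126), Gpr37 0.40 (SE 0.171, adjusted p = 0.421), Dkk3 0.38 (SE 0.128, adjusted p = 0.178) and Apoe 0.32 (SE 0.117, adjusted p = 0.278). Without WT OIR replicate 3, the library that stood apart, 5 of the 9 passed the test, Rlbp1, Dkk3, Apoe and Car14 being added to Ptgds. In that fit the calls over all 22320 genes tested rose as well, to 463 higher and 352 lower from 60 and 71. With DESeq2, or with all 12 libraries in one fit, 3 passed, Rlbp1 and Dkk3 being the added genes, and over all genes 50 were higher with DESeq2 and 134 in the fit of 12.

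**Figure D3:**
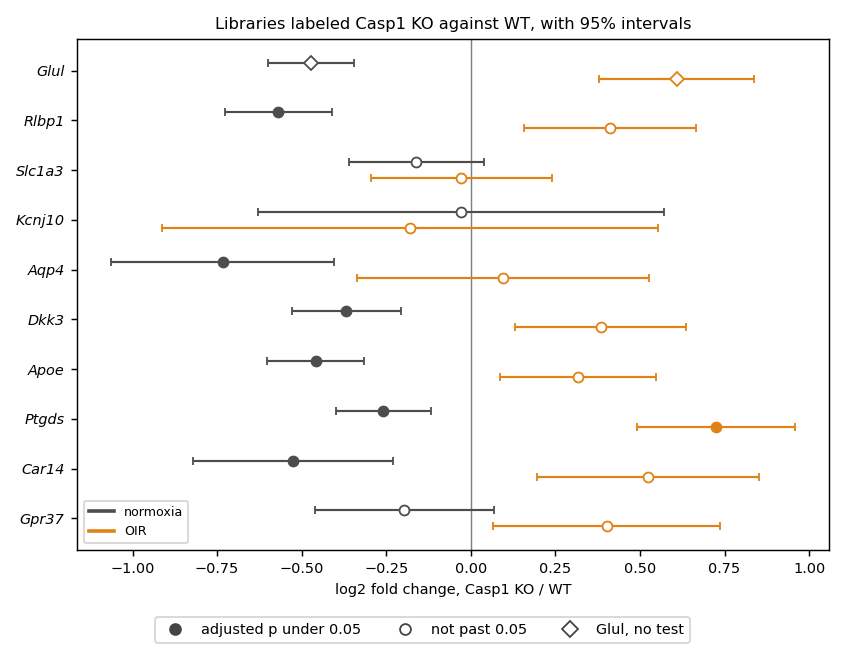
Log2 fold change of the libraries labeled Casp1 KO against those labeled WT for each gene, in normoxia (gray) and in OIR (orange), with 95% intervals. Filled circles passed an adjusted p of 0.05, open circles did not, and Glul (diamonds) was not tested. Of the 9 tested genes, 0 lie above 0 in normoxia and 7 lie above 0 in OIR. The median over all genes tested was 0.006 in normoxia and -0.04 in OIR.

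Genes that work beside the members were followed through lists chosen, like the set itself, with earlier results of these data known. Among all genes with a mean of at least 5 CPM, 7.21% were called for OIR in WT and 8.7% in Casp1 KO, in either direction. For the difference of the 2 effects the share was 2.27%. Lists with 1 gene called are not read as results about the list. In the glutamate and GABA list, 4 of 17 genes fell in WT and 0 rose, among them the GABA transporter Slc6a11 (-0.77, SE 0.149, adjusted p = 3.3e-05), the GABA-degrading enzyme Abat (-0.57, SE 0.168, adjusted p = 0.0254) and the glutamine transporter Slc38a1 (-0.50, SE 0.1398, adjusted p = 0.0153). In Casp1 KO, Abat fell as well (-0.71, SE 0.146, adjusted p = 0.000114) and the GABA transporter Slc6a13 rose (1.15, SE 0.284, adjusted p = 0.00239). Slc1a2, the GLT-1 transporter, was the most abundant of the list at 753 to 857 CPM and was not among the genes called. Slc6a11 had a more positive OIR effect in Casp1 KO (0.67, SE 0.190, adjusted p = 0.0405), the one gene of the 17 that did, and that call was lost with scaling by library size alone and with both stricter filters.

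The retinoid list holds the partners of Rlbp1. In WT 0 of 17 genes passed edgeR's test (4 at an unadjusted p under 0.05, 0 with DESeq2, and 1 with DESeq2 size factors), while in Casp1 KO 7 rose and 0 fell. Among them were the retinol carrier of the photoreceptor matrix Rbp3 (0.46, SE 0.061, adjusted p = 1.61e-11), the retinal G protein-coupled receptor Rgr (0.60, SE 0.120, adjusted p = 5.7e-05), the retinol dehydrogenase Rdh10 (0.51, SE 0.156, adjusted p = 0.0274) and the retinol uptake receptor Stra6 (1.51, SE 0.272, adjusted p = 3.51e-06). By edgeR the OIR effect was more positive in Casp1 KO for 1 of the 17, which is not among the genes named here, and by DESeq2 for 0. Several of these genes, Rgr and Stra6 among them, are also genes of the retinal pigment epithelium.

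Of the 26 genes for potassium, water and acid-base handling, 3 rose and 1 fell in WT, and 4 rose and 1 fell in Casp1 KO. Gja1, the gap junction protein connexin 43, rose in both (1.32, SE 0.219, adjusted p = 4.42e-07 in WT and 1.16, SE 0.186, adjusted p = 7.48e-08 in Casp1 KO). Dmd, whose retinal dystrophin anchors Kir4.1 and aquaporin-4 at glial endfeet and is also made in photoreceptors, rose in WT (0.37, SE 0.116, adjusted p = 0.0424) and fell in Casp1 KO (-0.53, SE 0.073, adjusted p = 1.27e-10). Its effect was more negative in Casp1 KO (-0.92, SE 0.137, adjusted p = 3.56e-08), the reverse of the direction of the called members. The anion exchanger Slc4a3 fell in WT (-0.52, SE 0.148, adjusted p = 0.0159). In Casp1 KO the water channel Aqp1 (0.60, SE 0.112, adjusted p = 1.15e-05) and basigin, Bsg, the partner of lactate transporters (0.56, SE 0.080, adjusted p = 1.21e-09), rose.

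Among the lipid carriers and receptors, 1 of 18 genes rose in WT and 3 of 19 in Casp1 KO, with 0 falling in either. The cholesterol exporter Abca1, which loads apolipoprotein E with lipid, rose in both (1.12, SE 0.222, adjusted p = 5.64e-05 and 1.05, SE 0.224, adjusted p = 0.000194). Clu, the other main apolipoprotein of glia, had the called directions of Apoe: it rose in Casp1 KO (0.75, SE 0.078, adjusted p = 3.01e-19) and its effect differed between genotypes (0.87, SE 0.144, adjusted p = 1.35e-06). Mean Clu levels were 523 CPM in WT normoxia, 476 in WT OIR, 379 in Casp1 KO normoxia and 633 in Casp1 KO OIR. Of the partners of Dkk3, Gpr37 and Ptgds, 1 of 14 genes was called in WT, the prostaglandin D synthase Hpgds (2.23, SE 0.672, adjusted p = 0.0289, and not with DESeq2). In Casp1 KO 0 of 13 were called by edgeR and 0 by DESeq2, with 1 at an unadjusted p under 0.05.

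Of 13 glial transcription factors and Notch targets, the Notch target Hes5 fell narrowly in WT (-0.82, SE 0.261, adjusted p = 0.0455), a call lost with DESeq2, and 0 rose. In Casp1 KO 5 rose and 0 fell: Sox9 (1.07, SE 0.128, adjusted p = 2.02e-14), Notch1 (1.02, SE 0.266, adjusted p = 0.00534), Nfib (0.72, SE 0.133, adjusted p = 7.95e-06), Sox2 (0.56, SE 0.157, adjusted p = 0.0133) and Nfix (0.48, SE 0.113, adjusted p = 0.0014). The difference between genotypes passed edgeR's test for 0 of the 13 and DESeq2's for 0, with 6 at an unadjusted p under 0.05. Of the 8 other Müller glia markers, 3 had a more positive OIR effect in Casp1 KO: Prdx6, a peroxiredoxin (0.77, SE 0.201, adjusted p = 0.0176), Mlc1, an astroglial membrane protein (0.76, SE 0.216, adjusted p = 0.0425) and Spon1, an extracellular matrix protein (0.71, SE 0.200, adjusted p = 0.0354). Over the 8, the median difference was -0.05 and 4 lay above 0, so the list as a whole did not have the direction of the called members. For OIR itself, 1 of the 8 rose in WT and 1 fell, Prdx6 (-0.53, SE 0.155, adjusted p = 0.0239). In Casp1 KO 2 rose and 1 fell. Crym rose in both genotypes (0.66, SE 0.1497, adjusted p = 0.000806 and 0.82, SE 0.119, adjusted p = 1.3e-09).

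**Figure D4:**
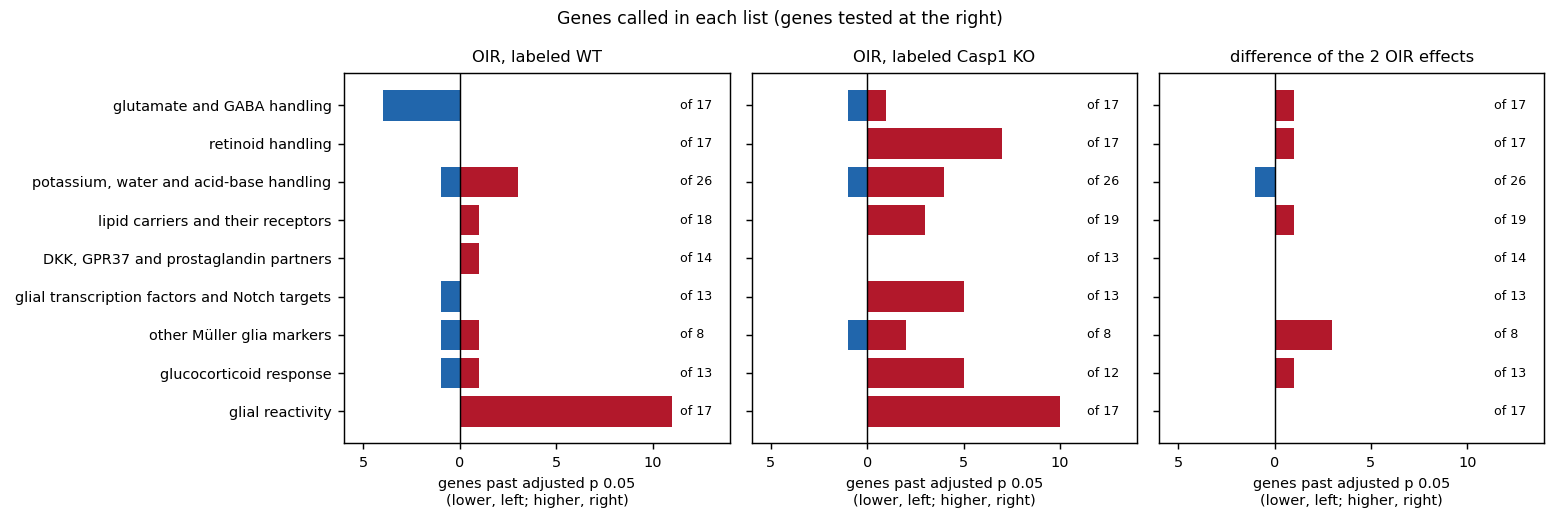
Number of genes in each list with an adjusted p under 0.05, for OIR in the libraries labeled WT, for OIR in those labeled Casp1 KO and for the difference of the 2 effects. Red bars to the right count higher (or more positive) genes, blue bars to the left lower (or more negative) ones, and the genes tested are given at the right of each row. Glial reactivity rises in both genotypes (11 and 10 of 17), while retinoid handling is called in Casp1 KO (7 of 17) and at 0 in WT. Among all genes with a mean of at least 5 CPM, 7.21% were called in WT, 8.7% in Casp1 KO and 2.27% for the difference, in either direction.

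Glial reactivity genes rose in both genotypes, 11 of 17 in WT and 10 of 17 in Casp1 KO, with 0 falling. Gfap had 1.62 (SE 0.184, adjusted p = 1.8e-15) in WT and 2.31 (SE 0.172, adjusted p = 1.12e-37) in Casp1 KO, and Vim had 0.97 (SE 0.137, adjusted p = 1.01e-09) and 1.32 (SE 0.104, adjusted p = 7.2e-34). The summed level was 355 to 372 CPM in WT normoxia, 756 to 845 in WT OIR, 332 to 335 in Casp1 KO normoxia and 767 to 819 in Casp1 KO OIR. The difference between genotypes passed edgeR's test for 0 of the 17 and DESeq2's for 0, with 2 at an unadjusted p under 0.05. Reactivity genes thus rose beside the falls of Rlbp1 and Aqp4 in WT and beside the rises of 6 of the 9 tested members in Casp1 KO.

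Glucocorticoids are known to induce Glul in the retina, and 13 glucocorticoid response genes were followed for that reason. In WT, Tsc22d3, which encodes GILZ, fell (-0.68, SE 0.198, adjusted p = 0.0223) and the cell cycle inhibitor Cdkn1a rose (1.02, SE 0.239, adjusted p = 0.00133). In Casp1 KO 5 of 12 rose and 0 fell: Cdkn1a (1.34, SE 0.219, adjusted p = 1.58e-07), Sgk1 (1.09, SE 0.180, adjusted p = 2.46e-07), Fkbp5 (0.86, SE 0.280, adjusted p = 0.0486), Nfkbia (0.75, SE 0.115, adjusted p = 1.26e-08) and Ddit4 (0.64, SE 0.087, adjusted p = 4.99e-11). Ddit4 had a difference between genotypes that passed the test (0.60, SE 0.155, adjusted p = 0.0168), and with either stricter filter it did not. Several of these genes also respond to hypoxia or stress.

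The 5 genes whose levels were most like those of Glul were not members of the set. Over the 12 libraries, among 11227 genes with a mean of at least 5 CPM, the highest Pearson correlations of log2 CPM with Glul were those of Guca1b, a photoreceptor guanylate cyclase activator (r = 0.907), Mrps12, a mitochondrial ribosomal protein (0.903), Tox3 (0.898), Prickle2 (0.886) and Itm2b (0.884). Within the set, Rlbp1 (0.855) and Dkk3 (0.823) were most like Glul, then Gpr37 (0.690), Ptgds (0.638), Aqp4 (0.525), Car14 (0.422) and Apoe (0.319). Slc1a3 (-0.05) and Kcnj10 (-0.10) did not follow it. The 12 points are 4 groups of 3. With the group means taken out, the correlation with Glul was 0.65 for Slc1a3 and negative for each of the other members. Those ran from -0.72 for Car14 to -0.05 for Dkk3, with -0.47 for Rlbp1. Mrps12 had 0.80 and Guca1b -0.18. The order of the members above thus rests on differences between the group means.

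Markers of other cells differed between the groups as well. The 10 oligodendrocyte markers summed to 257 to 318 CPM in WT normoxia, 61.8 to 74.0 in WT OIR, 42.1 to 50.8 in Casp1 KO normoxia and 46.2 to 60.2 in Casp1 KO OIR. Opalin was at 0 in each group except WT normoxia, and Mog and Cldn11 were also at 0 in Casp1 KO normoxia. In WT OIR 6 of the 10 markers fell, in Casp1 KO OIR 0 of 9 were called by edgeR (0 by DESeq2 and 0 at an unadjusted p under 0.05), and in Casp1 KO normoxia 8 of the 10 were lower than in WT normoxia. WT normoxia was also the highest group for Glul, Rlbp1, Kcnj10, Aqp4 and Gpr37. Gpr37, which oligodendrocytes share, spanned 65.7 to 86.1 CPM there, and Ptgds, which they share too, had its highest group elsewhere, in Casp1 KO OIR, where these markers were low. Their part in the results was not tested.

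The 10 retinal pigment epithelium markers summed to 905 to 914 CPM in WT normoxia, 1007 to 1178 in WT OIR, 1021 to 1044 in Casp1 KO normoxia and 1561 to 1699 in Casp1 KO OIR, and none was at 0 in a whole group. Ttr and Dct made up most of that sum, with means of 421 to 724 and 248.8 to 498 CPM over the groups. In WT 2 of the 10 rose, Pmel and Dct, and 1 fell, Lrat (-0.84, SE 0.245, adjusted p = 0.0198). In Casp1 KO 4 rose and 0 fell. In Casp1 KO, Rpe65 rose in OIR (0.97, SE 0.106, adjusted p = 3.98e-17), and its effect differed between genotypes (0.86, SE 0.181, adjusted p = 0.0007). Between the OIR groups, 4 of the 10 were higher in Casp1 KO than in WT (Rpe65, Ttr, Dct and Lrat) and 0 lower. Of all genes, 0.263% were higher in that comparison, in which Ptgds was the one tested member called. Rlbp1, Ptgds, Rgr and Stra6 are shared with that tissue. For Rlbp1 the summed markers and the gene moved together in Casp1 KO. In WT its level fell while the summed markers were higher, but the markers were not alike there. Lrat fell as Rlbp1 did, and Rpe65 had 0.08 (SE 0.146, adjusted p = 0.846). The part of these cells in the results of Casp1 KO was not tested.

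Astrocyte, fibroblast and rod markers were followed as well. The 4 astrocyte markers summed to 49.0 to 94.7 CPM over all libraries, with 0 called in WT (0 by DESeq2 and 0 at an unadjusted p under 0.05) and S100b lower in Casp1 KO (-0.49, SE 0.154, adjusted p = 0.0324), which DESeq2 did not call. The 7 vascular and meningeal fibroblast markers summed to 133 to 147 CPM in the libraries labeled WT, 152 to 162 in Casp1 KO normoxia and 175 to 195 in Casp1 KO OIR. Dcn was the one called, in Casp1 KO (1.43, SE 0.387, adjusted p = 0.0081). The 8 rod markers summed to 38189 to 45697 CPM in the libraries labeled WT and 40241 to 44594 in those labeled Casp1 KO. In WT 0 of them passed edgeR's test (2 at an unadjusted p under 0.05, 1 with DESeq2), and in Casp1 KO 3 rose, Nrl and Rom1 among them, and Sag fell.

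**Figure D5:**
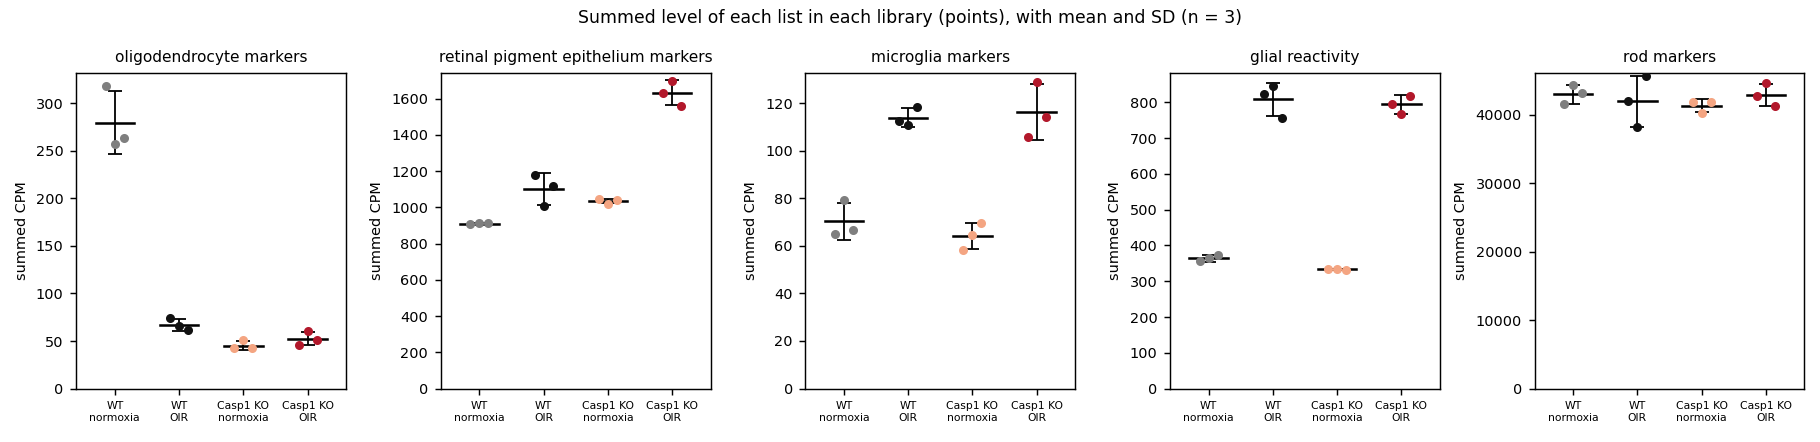
Summed CPM of the oligodendrocyte, retinal pigment epithelium, microglia, glial reactivity and rod lists in every library (points), with the group mean and SD (n = 3), on axes that start at 0. Oligodendrocyte markers are high in WT normoxia alone, pigment epithelium markers are highest in Casp1 KO OIR, and the rod sums of the 4 groups overlap.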

How the data were processed

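Retinal RNA of 12 libraries was made into 3′ mRNA libraries (QuantSeq) and read as single 75 bp reads. Per the labels and the submitters' processing notes, reads were aligned to mm10 with STAR 2.7.5a and the deposited table holds raw counts per gene from HTSeq 0.6.1, not normalized, with no row that names no gene. The strand setting is not given in the sources used here. Total counts ran from 3391203 to 22815830 per library. Groups came from the labels.

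Counts were fitted with edgeR 4.0.16 (quasi-likelihood test, TMM, R 4.3.3) for genes that had a count (minimum 1) in any library of the fit, each 2-group comparison on its own 6 libraries and the difference of OIR effects on all 12. P-values were two-sided and adjusted by Benjamini-Hochberg over all genes tested, with 0.05 as threshold. The standard error is the log2 fold change divided by the root of F, and intervals are 95%. The fit was tested on simulated data. Fold changes carry a prior count of 0.125.

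The members and lists were chosen with earlier results of these data known. All 10 members are named, Glul without a test; in the lists, genes past the threshold in an OIR comparison or in the difference could be named, smallest p first, and Slc1a2 as the most abundant of its list, with Clu levels given beside Apoe. Likeness to Glul used genes of at least 5 CPM. Positions are GENCODE gene models and promoters RefSeq. Alternatives were DESeq2 1.42.0, DESeq2 size factors, library size alone, 2 filters, edgeR's newer quasi-likelihood method, a replicate block, 1 fit over all 12 libraries, and leaving out each library. Some genes of the lists are counted but not reported by name here.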

Additional observations from a re-analysis of the deposited data

Results flagged for a closer look

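The difference between the OIR effects in the libraries labeled Casp1 KO and WT passed the test across all genes (edgeR) for 5 genes, which is what singled them out: Rlbp1 (0.99), Dkk3 (0.76), Apoe (0.78), Ptgds (0.99) and Car14 (1.06, with the count shared with Aph1a uncertain). For Glul, chosen for this pattern and not tested, the difference was 1.09, with all 3 OIR libraries below normoxia in WT and all 3 above it in Casp1 KO. The oligodendrocyte markers, high in WT normoxia alone, and the pigment epithelium markers, highest in Casp1 KO OIR, moved beside these genes, and their part was not tested. Casp1 reads were few, and more numerous in the libraries labeled Casp1 KO than in those labeled WT, so the genotype labels are not settled here.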

How the results depend on the processing

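The difference between the OIR effects was past the threshold for the same 5 genes in each of 7 other settings and without each of the 12 libraries. The count of 9 genes past the threshold stayed at 2 to 3 for OIR in WT and at 5 to 6 for OIR in Casp1 KO when 1 library was left out. For Casp1 KO against WT in normoxia the 6 fell to 3 with all 12 libraries in one fit, and without 1 library it ranged from 3 to 6. In OIR the 1 became 3 with DESeq2 and 3 with all 12 libraries in one fit, and without 1 library it ranged from 1 to 5. The cause was not tested. Car14 in normoxia was called in 1 of 8 other settings, Ptgds in normoxia in 5 of 8, and Rlbp1 in Casp1 KO OIR in 7 of 8.

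No value whose direction changed was past the threshold. Kcnj10 in Casp1 KO against WT in normoxia had 0.352 with the newer quasi-likelihood method and -0.63 to 0.206 when 1 library was left out. Leaving out 1 library gave Kcnj10 (-0.52 with all libraries) -0.7521 to 0.0699 and Aqp4 -0.10 to 0.10 in Casp1 KO OIR, Kcnj10 -0.37 to 0.46 in the difference of effects, and Slc1a3 -0.0506 to 0.0269 and Aqp4 -0.0355 to 0.236 in Casp1 KO against WT in OIR.

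The replicate numbers did not pair the libraries: 1 of 18 correlations of same-numbered libraries was over 0.1 (-0.04 to 0.16). With a replicate block the counts were 2 and 6 for OIR in WT and Casp1 KO, 5 and 1 for Casp1 KO against WT in normoxia and OIR, and 5 for the difference. Kcnj10, at 30 to 169 reads, is the member whose depth and spread limit a comparison most.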
